A study of Mus musculus with 52 samples.

Results

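In bone marrow stroma of irradiated mice, 4 libraries from mice given both sulprostone and rivenprost were compared with 4 libraries from mice given sulprostone alone, 8 of the 52 libraries of the series. The libraries were chosen by their titles and by no measured value. Sulprostone is an agonist of the prostaglandin E receptor EP3, and rivenprost an agonist of EP4, so the comparison measures what rivenprost added to sulprostone. All 8 groups of the stroma experiment had 4 libraries, from 2 male and 2 female mice each. Both agonists (EP3+4), rivenprost (EP4), sulprostone (EP3), misoprostol (Miso) or vehicle (Veh) were injected 30 min before total body irradiation with 853 cGy. A further irradiated group is titled PGE, and non-irradiated groups are titled NI-PGE and NI-Veh; the design text describes the injection and sham irradiation of the vehicle mice and gives no details of the PGE groups. Marrow was taken 1 h after irradiation. CD45- Ter119- cells, which carry neither the leukocyte nor the erythroid surface antigen, were enriched with magnets and their RNA was sequenced. The labels give no dose, strain or age. The cells are a mixture of types, so a lower level can come from fewer cells of a type or from less RNA per cell, which cannot be told apart.

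EP4 is coupled to the G protein that activates adenylyl cyclase. The cyclic AMP made activates protein kinase A, which phosphorylates CREB, and CREB binds cyclic AMP response elements in promoters of rapidly induced genes such as those of the NR4A nuclear receptors. EP3 is mostly coupled to the inhibitory G protein, which lowers cyclic AMP. Irradiation breaks DNA and stabilises the transcription factor p53, which induces its own inhibitor Mdm2 together with genes of growth arrest, DNA repair and cell death.

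Of 15168 genes tested with edgeR's quasi-likelihood test, 57 (0.376%) were higher and 197 (1.3%) were lower with both agonists than with sulprostone at a Benjamini-Hochberg adjusted p below 0.05, which is what called means below. The 254 called genes were 1.67% of those tested, and 2714 genes had an unadjusted p below 0.05. These calls rest on a spread estimated over all 32 stroma libraries, and a fit of only the 8 libraries called 2 genes. With the block of each mouse (its run of title numbers within its sex) as a term in place of sex, a fit chosen after the data were seen, 1442 genes were called, 766 higher and 676 lower, all 254 among them, so the excess of lower over higher calls was not present in that fit. Rapidly induced cyclic AMP response genes (Nr4a1, Nr4a2, Per1), the cytokine genes Lif and Il6 and the genes of 2 RNA-binding proteins, Cirbp and Hnrnpdl, were among the higher genes. Among the lower ones were 12 p53 target genes, of which Mdm2 and Sesn2 are examples, and genes of splicing and RNA-binding proteins such as Luc7l3, Prpf38b and Rbm39. In 227 of the 254 the 4 libraries of each group did not overlap (54 higher, 173 lower), while over all genes 5.83% were higher without overlap and 5.29% lower without overlap. A change of at least 2-fold was seen in 86 called genes, 16 higher and 70 lower. The median log2 fold change was -0.82 among the called lower genes, 0.70 among the called higher genes and -0.0048 over all genes.

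The libraries held 51653000 to 73696000 counts with both agonists and 40051000 to 61738000 with sulprostone. Replicates 1 and 4 of each group are female and replicates 2 and 3 male. Replicate 2 of sulprostone, the shallowest library, stood apart from the other 7 on the second principal component, which held 23.7% of the variance. The number of called genes depended strongly on single libraries. As a share of the genes tested it was 0.224%, 0.778%, 0.916% and 0.264% without replicates 1, 2, 3 and 4 of both agonists, and 0.396%, 0.185%, 4.06% and 0.679% without replicates 1, 2, 3 and 4 of sulprostone, beside 1.67% with all 8. These shares stand for 28 genes at the lowest, without replicate 2 of sulprostone, and 616 at the highest, without its replicate 3. In every one of these 8 fits 22 genes (3 higher, 19 lower) were called. The higher 3 were Cirbp, Rnf125 and Mat2a, and the lower 19 include Pdlim5, Mdm2, Polk, Sesn2, Luc7l3, Prpf38b, Srek1, Snai2, Bcl6, Rest and Lpin1.

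**Figure D1:**
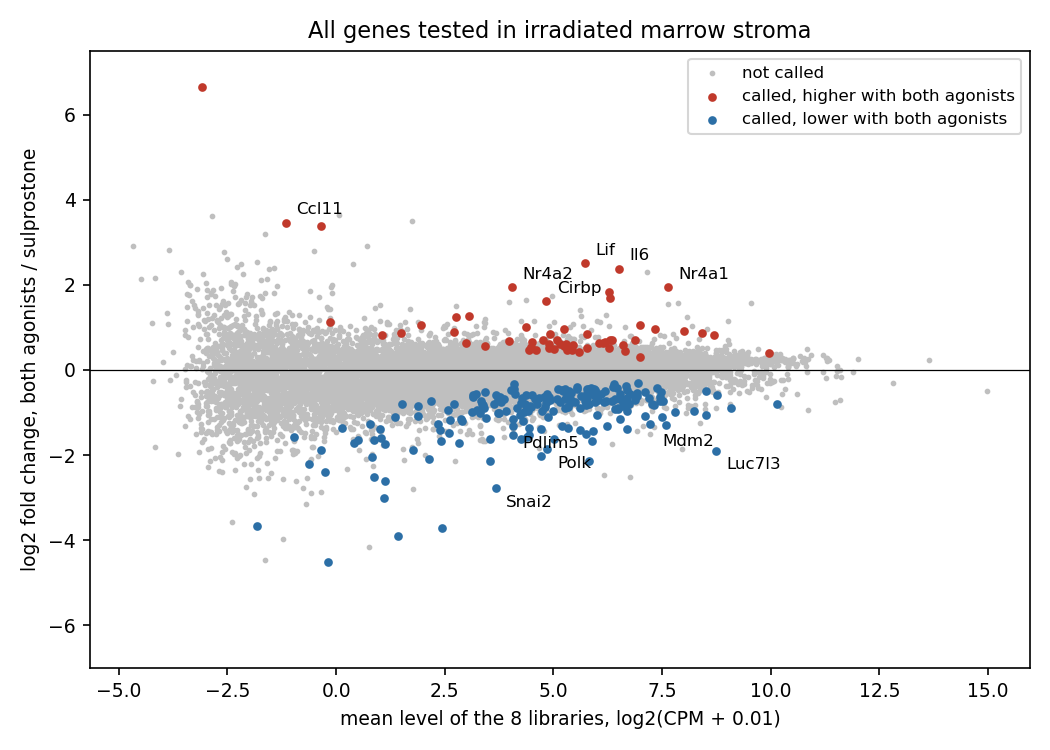
Log2 fold change of both agonists over sulprostone (y axis) against the mean level of the 8 libraries, as log2 of CPM plus 0.01 (x axis), 1 point per gene for 15168 genes. The 57 called higher genes (red) and 197 called lower genes (blue) lie on both sides of a cloud centred close to 0; the point at the far upper left is Areg, which had no counts with sulprostone.

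The level of the 4 prostaglandin E receptor genes was not called different. Ptger4, encoding EP4, averaged 47.8 ± 20.8 CPM (a library's counts brought to a common depth with edgeR's trimmed mean of M-values, TMM) with both agonists and 36.9 ± 6.36 CPM with sulprostone (SD, n = 4 each), and its log2 fold change was 0.34 ± 0.28 (SE, adjusted p = 0.531 with edgeR). Ptger3, encoding EP3, averaged 6.09 ± 1.44 CPM with both agonists and 6.76 ± 2.20 CPM with sulprostone (adjusted p = 0.764). Ptger2 and Ptger1, the genes of EP2 and EP1, averaged 1.08 ± 0.28 and 0.339 ± 0.154 CPM with both agonists, against 2.09 ± 0.91 and 0.361 ± 0.333 CPM with sulprostone. All libraries of both agonists lay below those of sulprostone for Ptger2 (log2 fold change -0.95, adjusted p = 0.279 with edgeR). The groups of Ptger1 overlapped (log2 fold change -0.10, adjusted p = 0.928 with edgeR). Of 18 measured genes of prostaglandin receptors and metabolism, 0 were called, and their median log2 fold change was -0.12; the smallest p of the list belonged to Hpgd, which encodes the enzyme that inactivates prostaglandins, with 18.4 ± 5.27 CPM with both agonists and 30.9 ± 6.80 CPM with sulprostone (adjusted p = 0.197).

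Cyclic AMP and CREB response genes were measured for 34 of 38 listed symbols, and 5 of the 34 were called higher and 1 lower. Over all genes 0.376% were called higher and 1.3% lower. The list's median log2 fold change was 0.19, beside -0.0048 over all genes. The higher genes were Nr4a1, Nr4a2, Per1, Pde4d and Areg, and the lower one was Creb1. The promoters of Nr4a1, Nr4a2 and Areg are shown as those with the most matches to the CREB motif among the 5 called higher genes of the list, a choice made on the motif itself; the windows reach from 250 bases before to 50 bases after the annotated gene start, come from RefSeq on GRCm38.p6 (the assembly that mm10 stands for), and carry in capitals each TGACG, the first letters of the cyclic AMP response element TGACGTCA, and its reverse complement CGTCA.
Nr4a1, chr15:101266596-101266895, plus strand: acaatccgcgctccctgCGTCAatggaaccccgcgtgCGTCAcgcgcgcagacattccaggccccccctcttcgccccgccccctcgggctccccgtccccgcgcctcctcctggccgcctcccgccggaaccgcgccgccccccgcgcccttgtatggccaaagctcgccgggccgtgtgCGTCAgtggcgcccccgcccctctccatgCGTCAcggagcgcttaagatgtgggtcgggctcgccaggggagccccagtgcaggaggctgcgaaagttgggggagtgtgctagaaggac
Nr4a2, chr2:57123954-57124253, minus strand: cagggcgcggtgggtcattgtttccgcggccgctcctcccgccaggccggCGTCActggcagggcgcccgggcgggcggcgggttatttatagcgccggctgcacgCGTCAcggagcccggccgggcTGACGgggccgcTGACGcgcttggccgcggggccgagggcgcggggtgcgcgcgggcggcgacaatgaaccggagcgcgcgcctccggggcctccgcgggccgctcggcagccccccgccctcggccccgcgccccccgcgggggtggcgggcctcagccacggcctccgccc
Areg, chr5:91139349-91139648, plus strand: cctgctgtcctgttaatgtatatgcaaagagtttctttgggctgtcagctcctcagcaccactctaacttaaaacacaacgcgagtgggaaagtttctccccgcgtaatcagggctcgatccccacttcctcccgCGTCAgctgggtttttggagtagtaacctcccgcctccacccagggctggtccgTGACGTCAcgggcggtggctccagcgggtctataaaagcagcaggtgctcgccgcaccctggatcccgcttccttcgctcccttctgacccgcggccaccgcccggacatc

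The window of Nr4a1 held 4 of the 5-base matches, at 233, 213, 69 and 40 bases before the gene start by their first base, all on the opposite strand. The window of Nr4a2 held 4 matches, the farthest 200 bases before the start, and that of Areg held the whole 8-base element 61 bases before the start and a further CGTCA upstream of it. Per1 had a match in both of its windows, and the window of Pde4d had none. TGACG or CGTCA was present in the windows of 57.5% of the 47 called higher genes with a promoter in the table, of 35.6% of the 149 called lower genes and of 33.5% of the 11352 tested genes with a promoter. The whole TGACGTCA was present in 4.26% of the called higher, 4.70% of the called lower and 3.40% of the tested genes, and in 1.79% of all 32851 windows of the table. No test was made, a match of letters is a description, and these genes were chosen for printing after their values were seen. The first rule for printing asked for the whole TGACGTCA among the 33 called genes with the largest separate changes or the smallest p. Outside chromosome 18, 0 of those genes held it in a window of the table, and some had no window there.

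Nr4a1 (chr15:101266846-101274794, mm10), an orphan nuclear receptor induced within minutes of cyclic AMP signalling, had 317, 198, 493 and 259 CPM with both agonists, against 68.6, 69.7, 124.8 and 70.03 CPM with sulprostone. All 4 libraries of both agonists lay above all 4 of sulprostone, and the log2 fold change was 1.94 ± 0.45 (SE, adjusted p = 0.0245 with edgeR, called in 2 of the 8 fits that leave out a library). Its relative Nr4a2 (chr2:57107226-57124003) had 29.8, 12.6, 32.3 and 30.0 CPM with both agonists, against 4.80, 5.88, 5.67 and 10.9 CPM with sulprostone. The groups of Nr4a2 were separate, with replicate 2 of both agonists closest to the sulprostone range (log2 fold change 1.94 ± 0.41, adjusted p = 0.0159, called in 4 of those 8 fits). The third member of the family, Nr4a3, averaged 382 ± 236 CPM with both agonists and 156 ± 87.01 CPM with sulprostone, with overlapping groups and no call (log2 fold change 1.25, adjusted p = 0.24).

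Per1, a clock gene whose promoter also responds to CREB, had 195, 194, 264 and 195 CPM with both agonists, against 81.3, 109, 139.2 and 104 CPM with sulprostone. The groups did not overlap, and the log2 fold change was 0.97 ± 0.23 (adjusted p = 0.0251 with edgeR, called in 2 of the 8 fits without 1 library). Of the 20 measured circadian clock genes Per1 was the one called. Pde4d, encoding a phosphodiesterase that breaks down cyclic AMP, had 86.02, 79.2, 144 and 91.8 CPM with both agonists, against 57.4, 52.4, 69.3 and 68.3 CPM with sulprostone. Its groups were separate by a small gap (log2 fold change 0.69 ± 0.18, adjusted p = 0.0391), it was called in 2 of the 8 fits, and relative log expression factors gave an adjusted p of 0.0532. It was the 1 called gene of 15 phosphodiesterases of cyclic nucleotides. Areg, the gene of the growth factor amphiregulin, was rare, with 0.223, 0.381, 0.134 and 0.119 CPM with both agonists and 0 counts in each of the 4 sulprostone libraries. Set against a floor of 3 counts over the whole sulprostone group, its mean of 0.214 CPM was at least 14.5-fold higher with both agonists (adjusted p = 0.0193 with edgeR). Areg was present without rivenprost in vehicle stroma, at 0.117 ± 0.075 CPM, and at 0.0688 ± 0.0437 CPM with rivenprost alone, so the fold rests on the absence of counts with sulprostone. Both agonists against vehicle gave a log2 fold change of 0.87 (adjusted p = 0.568), and rivenprost against vehicle one of -0.77 (adjusted p = 0.852). Creb1 itself fell to 86.4 ± 8.0 CPM with both agonists, against 120 ± 14.9 CPM with sulprostone (log2 fold change -0.47, adjusted p = 0.0362). Without replicate 1 of both agonists, or replicate 1 or 2 of sulprostone, none of the 5 higher list members was called. The early cyclic AMP genes Crem and Sik1 had log2 fold changes of 0.56 and 0.50 with adjusted p of 0.289 and 0.281. Of 32 immediate early genes, 2 were called, both of them NR4A genes counted above, and the list's median was 0.18. Beside these list counts, 1.67% of all genes tested were called, with a median of -0.0048.

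**Figure D2:**
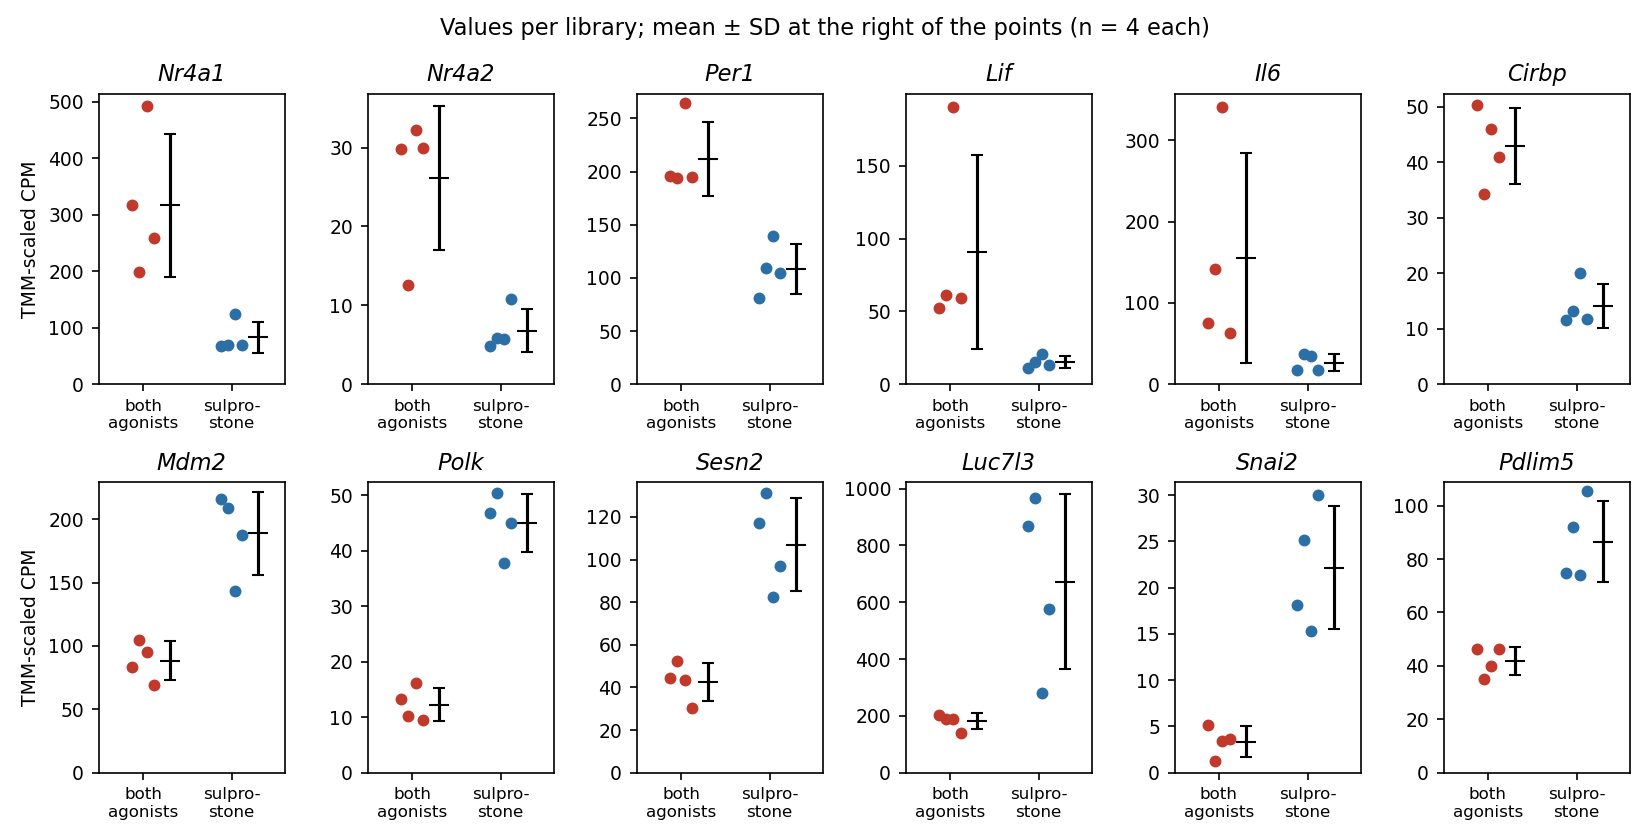
Levels in each library as TMM-scaled CPM (linear y axis from 0) for 6 genes that were called higher (top) and 6 that were called lower (bottom); points are libraries, red for both agonists and blue for sulprostone, and black marks show mean ± SD (n = 4). In all 12 genes the 4 points of both agonists lie on one side of the 4 points of sulprostone, with the widest spread in Lif, Il6 and Luc7l3. Most of these genes were named by a rule that required such separation, so for them it was fixed by the choice.

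Lif and Il6, the genes of 2 secreted cytokines that signal through the shared receptor subunit gp130, rose the most among the separate higher genes at 5 CPM or more. Lif (chr11:4257568-4272514) had 52.2, 61.1, 191 and 59.3 CPM with both agonists, against 10.9, 15.6, 20.6 and 13.0 CPM with sulprostone. Replicate 3 of both agonists stood far above the other libraries, and the lowest of the group lay above the highest sulprostone library (log2 fold change 2.51 ± 0.60, adjusted p = 0.0285 with edgeR). Il6 (chr5:30013161-30019968) had 75.3, 141.2, 341 and 63.1 CPM with both agonists, against 17.5, 36.7, 35.0 and 17.2 CPM with sulprostone. Its groups were separate as well (log2 fold change 2.38 ± 0.63, adjusted p = 0.0473), but Il6 was called in 0 of the 8 fits without 1 library, with adjusted p between 0.0628 and 0.197, and without a term for sex its adjusted p was 0.11. Lif was called in 2 of the 8, with adjusted p up to 0.143.

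Of the 21 measured genes of the IL-6 family, its receptors and the SOCS inhibitors, Lif and Il6 were the 2 called and 14 had a negative sign (median log2 fold change -0.16). Over all genes 0.376% were called higher and 1.3% lower, and the median was -0.0048. Socs3, a feedback inhibitor of these cytokines, averaged 395 CPM with both agonists and 191 CPM with sulprostone, which was not called (adjusted p = 0.25). Among 22 chemokine genes 1 was called, the eosinophil attractant Ccl11. It was rare in both groups, with 0.952, 0.503, 1.33 and 0.395 CPM with both agonists, against 0.0217, 0.225, 0.0318 and 0.0366 CPM with sulprostone (log2 fold change 3.46 ± 0.87, adjusted p = 0.0362, called in 1 of the 8 fits). Tnfsf11, encoding the osteoclast factor RANKL, had 311, 121.8, 544 and 212 CPM with both agonists, against 107, 64.5, 122.9 and 114.5 CPM with sulprostone. Those groups met, since replicate 2 of both agonists lay below replicate 3 of sulprostone, and the gene was not called (log2 fold change 1.56, adjusted p = 0.109 with edgeR and 0.0324 with DESeq2).

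Several further genes outside these lists were named by the rule for large, separate changes. Fzd5, a receptor of Wnt ligands, averaged 120.6 ± 50.7 CPM with both agonists and 37.2 ± 8.29 CPM with sulprostone (log2 fold change 1.70, adjusted p = 0.0293), while of the 26 measured genes of the Wnt pathway list 0 were called. Emd, encoding the nuclear envelope protein emerin, averaged 173 ± 62.6 CPM with both agonists and 81.6 ± 13.0 CPM with sulprostone (adjusted p = 0.037, and 0.0665 without a term for sex). Dgke, the gene of a kinase that consumes diacylglycerol, averaged 11.7 ± 2.45 CPM with both agonists and 4.86 ± 1.64 CPM with sulprostone. Polr3g, a subunit gene of RNA polymerase III, averaged 27.6 ± 1.73 CPM with both agonists and 13.7 ± 3.40 CPM with sulprostone. The remaining higher genes of that rule were Sapcd2, Haghl and 5930430L01Rik, which were all below 12 CPM in each library.

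The 3 higher genes called without any 1 library encode proteins of RNA binding, methyl group supply and ubiquitin transfer. Cirbp (chr10:80167841-80171653), encoding a cold-inducible RNA-binding protein, had 50.4, 34.3, 46.0 and 41.0 CPM with both agonists, against 11.5, 13.2, 20.01 and 11.7 CPM with sulprostone. The groups were well separated (log2 fold change 1.61 ± 0.27, adjusted p = 0.00304 with edgeR), and the gene was called in 8 of 8 fits without 1 library. Mat2a, which makes the methyl donor S-adenosylmethionine, had 418, 457, 462 and 430 CPM with both agonists, against 217, 190, 314 and 251 CPM with sulprostone. Rnf125, encoding a ubiquitin ligase, had 49.4, 43.7, 61.2 and 45.5 CPM with both agonists, against 21.0, 23.9, 26.8 and 30.1 CPM with sulprostone. Neither gene's groups overlapped, and each was called in 8 of 8 fits (log2 fold changes 0.86 ± 0.14 and 0.97 ± 0.16).

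Genes of other splicing and RNA-binding proteins moved in both directions; they were grouped after their values were seen, and the counts below are descriptions. Hnrnpdl rose to 335 ± 33.2 CPM with both agonists, against 179 ± 39.0 CPM with sulprostone (log2 fold change 0.91, adjusted p = 0.0159), and it was the 1 called of 20 measured genes of heterogeneous nuclear ribonucleoproteins. Srsf5, encoding a serine- and arginine-rich splicing factor, had 568, 464, 602 and 472 CPM with both agonists, against 308, 288, 353 and 253 CPM with sulprostone (log2 fold change 0.81, adjusted p = 0.0159). Srsf11, of the same family of 10 measured genes, went the other way, with 225, 216, 218 and 164 CPM with both agonists, against 478, 516, 246 and 359 CPM with sulprostone (log2 fold change -0.96, adjusted p = 0.019). The groups of Srsf5 and Srsf11 did not overlap. Beside these family counts, 1.67% of all genes tested were called.

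Luc7l3 (chr11:94291139-94321911), a gene of a protein related to a yeast component of the U1 spliceosomal particle, had 203, 191, 190 and 140.8 CPM with both agonists, against 867, 966, 282 and 575 CPM with sulprostone. The sulprostone libraries differed among themselves by more than 3-fold, with replicate 3 lowest, and even so did not reach the range of both agonists (log2 fold change -1.90 ± 0.33, adjusted p = 0.00444 with edgeR). Prpf38b, encoding a splicing factor, had 109, 121.4, 124.3 and 101 CPM with both agonists, against 282, 323, 157 and 220 CPM with sulprostone, again with replicate 3 lowest in a separate group. Srek1, Rbm25, Rbm5 and Rbm39 followed with log2 fold changes of -1.16, -0.90, -0.91 and -0.60. Of the 36 genes whose symbol is Rbm and a number, 6 were called lower and 0 higher, among them the neighbours Rbm12b1 and Rbm12b2, which resemble each other and between which the counting can split reads. Of the 337 genes whose symbol is Zfp and a number, 18 were called lower and 0 higher, and their median log2 fold change was -0.18. Beside these Rbm and Zfp counts, 1.3% of all genes tested were called lower and 0.376% higher, with a median of -0.0048. The median deposited length was 3846 bases in the called lower genes, 2607 bases in the called higher genes and 2836 bases in all genes tested. The part of transcript length or nuclear RNA in these differences was not tested.

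Of the 34 measured p53 target genes, 12 were called lower and 0 higher, beside 1.3% lower and 0.376% higher over all genes. The list, like the others, was chosen with earlier results of these data known, so its counts are descriptions. In 31 of the 34 the sign was negative, and the median log2 fold change was -0.68 beside -0.0048 for all genes. With the block as a term 19 were lower and 0 higher, as with the run as a term, beside 9.51% and 6.71% of all genes called. A fit of only the 8 libraries called 1 lower, only the title numbers 715 to 730 gave 2 and only 780 to 793 gave 0. In the same order these fits called 0.0132%, 0.343% and 0.0% of all genes. Mdm2 (chr10:117688875-117710758), encoding the ubiquitin ligase that restrains p53, had 83.6, 105, 95.4 and 69.2 CPM with both agonists, against 216, 209, 143.4 and 188 CPM with sulprostone. No library of both agonists came near the sulprostone range (log2 fold change -1.09 ± 0.17, adjusted p = 0.00297 with edgeR), and Mdm2 was called in 8 of 8 fits without 1 library. Polk, the gene of a DNA polymerase that copies past lesions, had 13.3, 10.2, 16.1 and 9.58 CPM with both agonists, against 46.8, 50.4, 37.8 and 45.1 CPM with sulprostone. Sesn2, encoding a stress protein that inhibits mTORC1, had 44.4, 52.2, 43.6 and 30.5 CPM with both agonists, against 117.3, 131.3, 82.4 and 97.0 CPM with sulprostone. Both were separate and called in 8 of 8 fits (log2 fold changes -1.86 ± 0.32 and -1.32 ± 0.24).

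Others of the 12 have roles in arrest, death and repair. Ccng1, encoding cyclin G1, had 242, 313, 210 and 182 CPM with both agonists, against 653, 512, 353 and 464 CPM with sulprostone. Trp53inp1, whose product promotes p53-driven cell death, averaged 111 ± 29.0 CPM with both agonists and 274 ± 90.6 CPM with sulprostone. The death receptor gene Tnfrsf10b averaged 9.10 ± 2.49 CPM with both agonists and 28.8 ± 5.71 CPM with sulprostone, and Eda2r, also of the TNF receptor family, 5.62 ± 2.71 CPM with both agonists and 17.6 ± 3.30 CPM with sulprostone. None of these 4 overlapped between the groups, and their log2 fold changes were -1.06, -1.29, -1.62 and -1.62. Phlda3, an inhibitor of the kinase AKT, had 30.1, 43.1, 24.2 and 16.3 CPM with both agonists, against 117.3, 111, 52.9 and 81.9 CPM with sulprostone (log2 fold change -1.67 ± 0.39, called in 2 of 8 fits). Fam212b (log2 fold change -2.02, called in 2 of 8 fits), Zmat3 (-0.79), Ercc5 (-0.77) and Ei24 (-0.38) complete the 12. Ercc5, encoding an endonuclease of nucleotide excision repair, was called in 7 of the 8.

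Some well-known targets were not called. Cdkn1a, encoding the cell cycle inhibitor p21, had 268, 282, 268 and 143.3 CPM with both agonists, against 455, 447, 234 and 336 CPM with sulprostone. Replicate 3 of sulprostone lay among the libraries of both agonists, and the adjusted p was 0.289 (log2 fold change -0.60 ± 0.30). Bax, the death effector, averaged 49.2 ± 4.55 CPM with both agonists and 57.2 ± 7.91 CPM with sulprostone (adjusted p = 0.477), and Rps27l 136.5 ± 21.2 CPM with both agonists and 129.4 ± 13.5 CPM with sulprostone (adjusted p = 0.836). The level of Trp53 itself was 252 ± 31.9 CPM with both agonists and 254 ± 34.2 CPM with sulprostone (log2 fold change -0.01 ± 0.17). The number of the list's genes called lower was 12 without replicate 2 of both agonists and 15 without replicate 3 of sulprostone. It was 5, 6 and 4 without replicates 1, 3 and 4 of both agonists, and 6, 4 and 7 without replicates 1, 2 and 4 of sulprostone. The median stayed between -0.82 and -0.59 over those 8 fits, and 0 members were called higher in any of them.

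**Figure D3:**
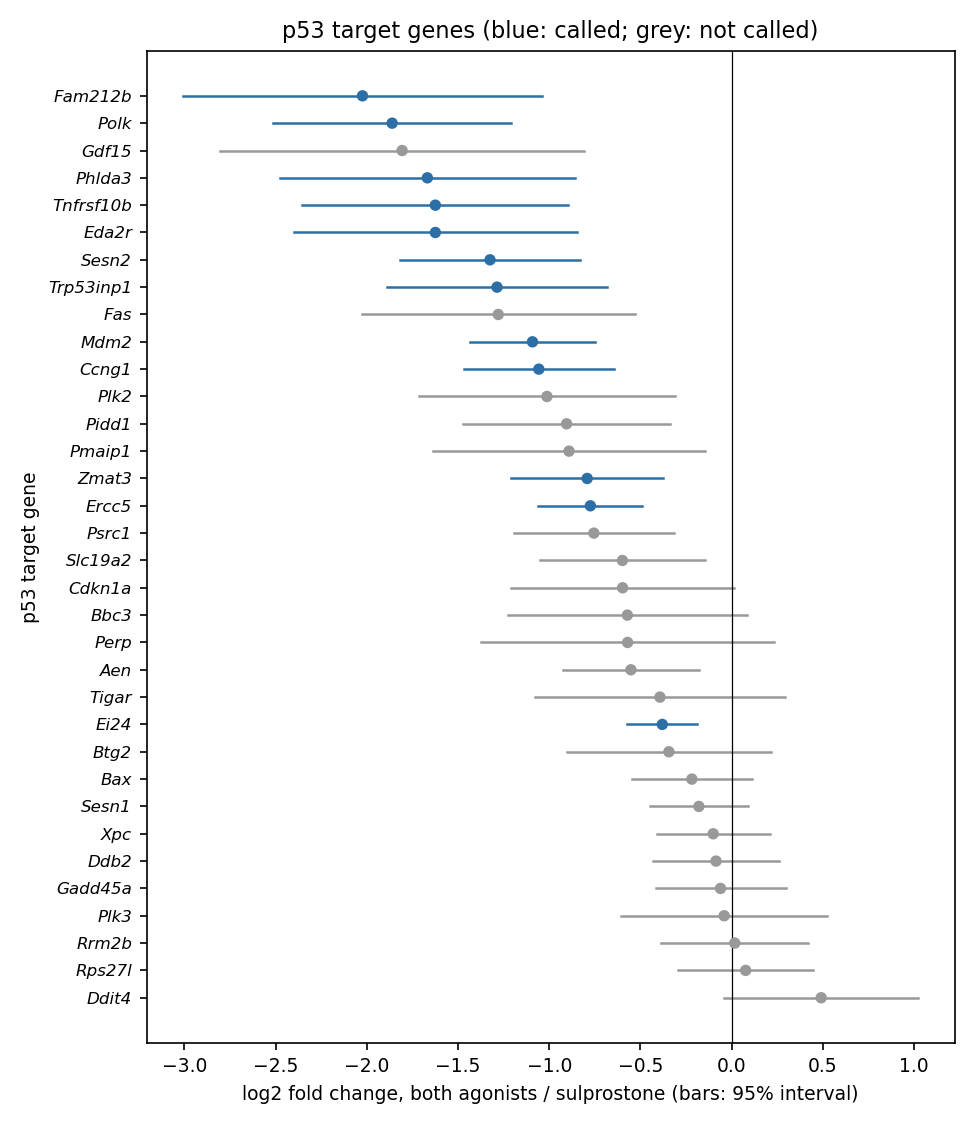
Log2 fold change of both agonists over sulprostone (x axis) with its 95% interval (bars) for the 34 measured p53 target genes (y axis), in order of the change. The 12 called genes are blue and the others grey; 31 of the 34 points lie left of 0.

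Over the stroma groups, the mean levels of Mdm2 and Sesn2 with both agonists lay between those of irradiated and sham-irradiated vehicle stroma. Mdm2 averaged 88.3 ± 15.4 CPM with both agonists, 132.05 ± 36.1 CPM with rivenprost, 189 ± 32.7 CPM with sulprostone, 83.8 ± 10.3 CPM with PGE and 196 ± 11.8 CPM with vehicle, and 57.1 ± 4.73 CPM in sham-irradiated vehicle stroma (SD, n = 4 each). Sesn2 averaged 42.7 ± 9.004 CPM with both agonists, 78.9 ± 24.5 CPM with rivenprost, 107 ± 21.6 CPM with sulprostone, 121.6 ± 16.1 CPM with vehicle and 18.1 ± 1.65 CPM in sham-irradiated vehicle stroma. Polk averaged 12.3 ± 3.02 CPM with both agonists, within the spread of the 15.1 ± 5.17 CPM of sham-irradiated vehicle stroma. Sulprostone alone lay within the spread of irradiated vehicle for these 3 genes.

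**Figure D4:**
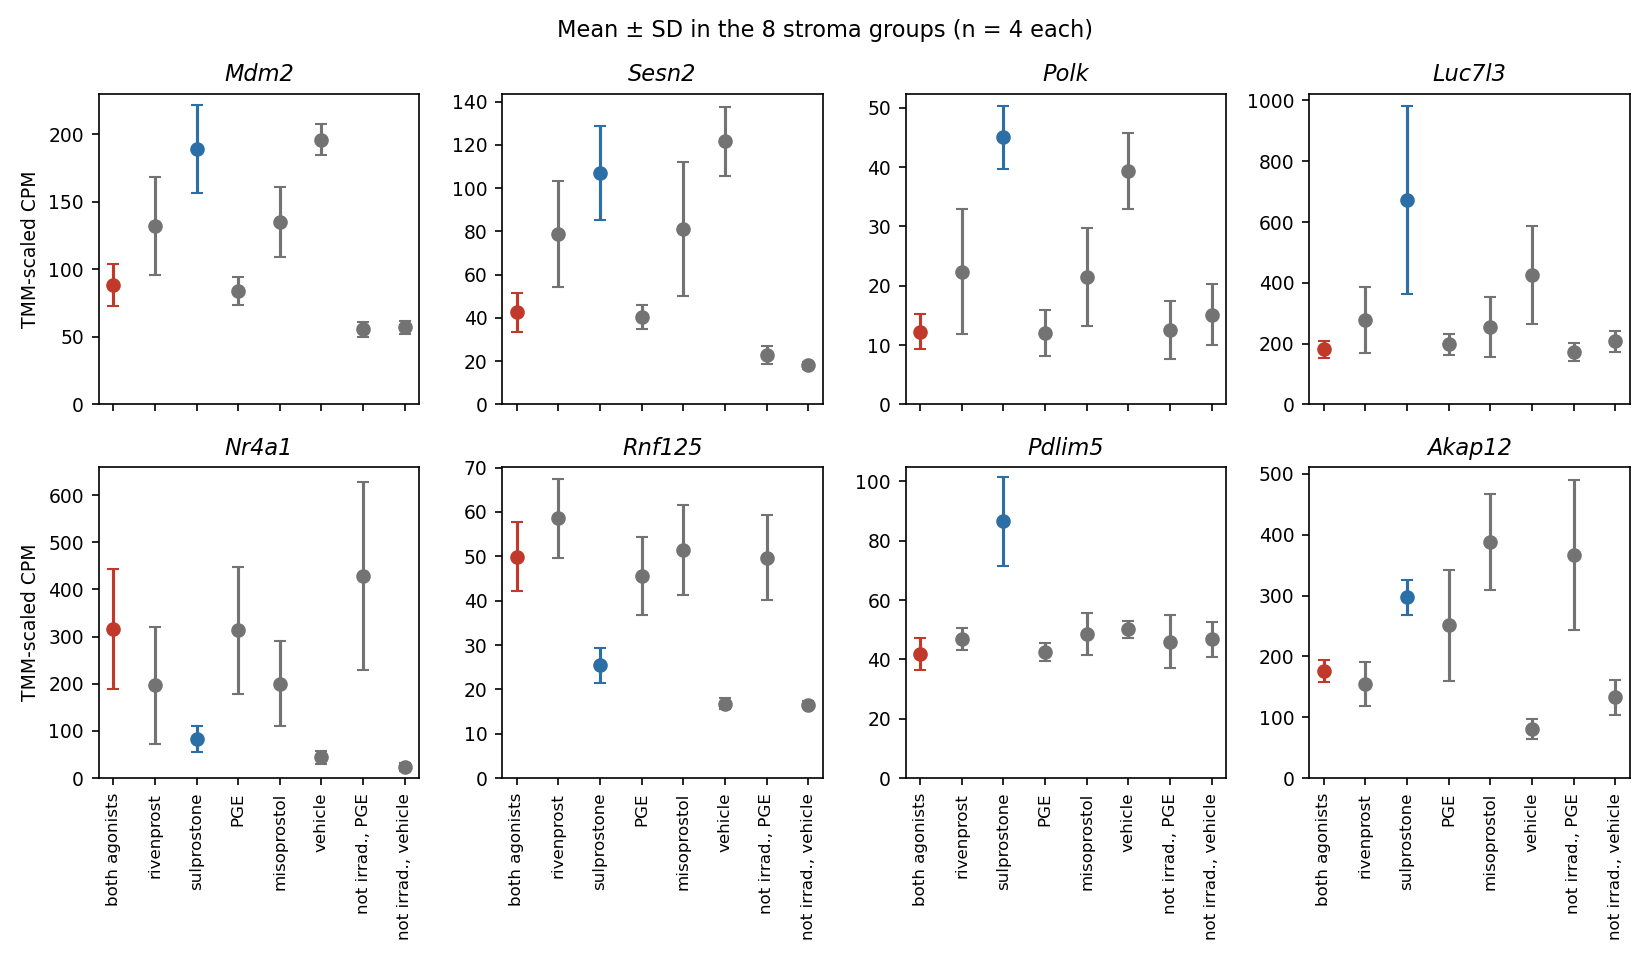
Mean ± SD (n = 4 libraries) in TMM-scaled CPM (y axis from 0) of 8 genes in the 8 stroma groups (x axis), with both agonists in red, sulprostone in blue and the other groups in grey. Mdm2, Sesn2 and Polk are high with sulprostone and vehicle, Nr4a1 and Rnf125 are low with sulprostone and vehicle, and Pdlim5 stands above the other 7 groups with sulprostone alone.

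Pdlim5 (chr3:142239585-142395696), encoding a cytoskeletal scaffold protein, had the smallest p of all genes. It had 46.2, 35.1, 39.8 and 46.2 CPM with both agonists, against 74.9, 91.9, 73.9 and 105 CPM with sulprostone. The groups were separate (log2 fold change -1.05 ± 0.12, adjusted p = 8.2e-05 with edgeR), and the gene was called in 8 of 8 fits without 1 library. Sulprostone against vehicle gave 16 called genes (0.105%), 15 higher (0.0989%) and 1 lower (0.00659%), and Pdlim5 was one of them with a log2 fold change of 0.79 (adjusted p = 0.0036). The same sulprostone libraries enter both comparisons with opposite sign, so these values are not independent. Myo1e, encoding a single-headed myosin, had 15.2, 9.96, 21.4 and 14.2 CPM with both agonists, against 45.9, 42.3, 35.6 and 72.6 CPM with sulprostone. It was separate and called (log2 fold change -1.63 ± 0.32, adjusted p = 0.0107).

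The following 3 genes were also called higher with sulprostone than with vehicle and had negative, uncalled changes with both agonists against sulprostone. Here too the same sulprostone libraries enter both comparisons. Akap12, a scaffold of protein kinase A, had 154, 169, 197 and 182 CPM with both agonists, against 284, 265, 308 and 330 CPM with sulprostone, and 80.5 ± 16.7 CPM with vehicle. Its groups did not overlap (log2 fold change -0.75 ± 0.24, adjusted p = 0.108). Ptx3, a hyaluronan matrix gene, averaged 78.01 ± 38.6 CPM with both agonists, 221 ± 81.7 CPM with sulprostone and 18.8 ± 7.03 CPM with vehicle (adjusted p = 0.115). Slc2a1, the glucose transporter GLUT1, averaged 14.4 ± 2.95 CPM with both agonists and 29.3 ± 7.00 CPM with sulprostone (adjusted p = 0.0533). DESeq2 gave adjusted p of 0.0413 for Akap12, 0.0308 for Ptx3 and 0.0128 for Slc2a1. With the block, edgeR gave adjusted p of 0.0442 for Ptx3 and 0.0245 for Slc2a1.

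Among transcription factor genes, Snai2 (chr16:14705859-14709382), a regulator of mesenchymal identity also called Slug, fell the most of the separate lower genes at 5 CPM or more. It had 5.19, 1.23, 3.47 and 3.62 CPM with both agonists, against 18.1, 25.2, 15.4 and 30.0 CPM with sulprostone. The highest library of both agonists was below the lowest of sulprostone (log2 fold change -2.77 ± 0.52, adjusted p = 0.00753 with edgeR, called in 8 of 8 fits). Snai2 averaged 27.4 ± 4.50 CPM with vehicle and 54.3 ± 17.9 CPM in sham-irradiated vehicle stroma. Bcl6, a transcriptional repressor, had 9.89, 12.7, 11.6 and 10.4 CPM with both agonists, against 32.4, 34.2, 25.5 and 36.3 CPM with sulprostone (log2 fold change -1.52). Of the 17 C/EBP and Kruppel-like factors 2 were called, both lower: Klf15 at 2.59 ± 1.18 CPM with both agonists and 7.96 ± 1.95 CPM with sulprostone, and Cebpg, a dimer partner of other C/EBP proteins, at 55.2 ± 7.85 CPM with both agonists and 92.1 ± 11.8 CPM with sulprostone. Hspa5, the main chaperone of the endoplasmic reticulum, was the 1 called of 17 heat shock genes. It averaged 826 ± 44.2 CPM with both agonists and 1445 ± 349 CPM with sulprostone (adjusted p = 0.024 with edgeR, called in 1 of 8 fits). Beside the counts of these lists, 1.3% of all genes tested were called lower and 0.376% higher.

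Interferon-stimulated genes had mostly negative signs and few calls. Of 27 measured, 3 were called lower, 0 higher, and 26 had a negative sign (median log2 fold change -0.41). Over all genes 1.3% were called lower, and the median was -0.0048. With only the title numbers 715 to 730, 27 had a negative sign, and with only 780 to 793, 16 were negative and 11 positive. Gbp5, a guanylate-binding protein gene, had 10.3, 10.2, 9.73 and 10.1 CPM with both agonists, against 48.1, 29.6, 15.5 and 35.5 CPM with sulprostone. The 4 libraries of both agonists were nearly equal while sulprostone varied, with replicate 3 lowest (log2 fold change -1.59 ± 0.35, adjusted p = 0.0194 with edgeR). Irgm2, an immunity GTPase gene, averaged 12.2 ± 4.44 CPM with both agonists and 31.3 ± 8.91 CPM with sulprostone, and Stat2, a mediator of interferon signalling, 18.04 ± 6.60 CPM with both agonists and 35.2 ± 9.66 CPM with sulprostone. Without replicate 1 or 4 of both agonists or replicate 2 of sulprostone, 0 of the 27 were called. Cd40, a costimulatory receptor gene of the 28 measured NF-kB and inflammatory genes, had 4.58, 7.80, 1.85 and 2.21 CPM with both agonists, against 33.7, 18.4, 6.69 and 17.3 CPM with sulprostone. Its groups overlapped by 1 pair of libraries (log2 fold change -2.15 ± 0.55, adjusted p = 0.0397), and it was the 1 called gene of its list.

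The markers of the cells in the enriched fraction were set beside these changes. The summed level of 15 mesenchymal CAR-cell markers ranged from 6061 to 19194 CPM with both agonists and from 12159 to 17909 CPM with sulprostone, and that of 16 osteoblast-lineage markers from 2758 to 7794 CPM with both agonists and from 5786 to 13680 CPM with sulprostone. The sums of 20 endothelial markers ranged from 488 to 953 CPM with both agonists and from 850 to 1164 CPM with sulprostone. The summed level of the 11 pericyte and smooth muscle markers did not overlap between the groups, although each single marker did, with sums of 127.9 to 271 CPM with both agonists and 310 to 435 CPM with sulprostone. Replicate 2 of both agonists had the lowest sum in each of these 4 lists, and 0 of their members were called. All 17 collagen genes had a negative sign with no call (median log2 fold change -0.60), as had 22 of 25 measured niche ligand genes (median -0.38). Among them Jag1, a Notch ligand, averaged 4.94 ± 2.24 CPM with both agonists and 15.8 ± 6.46 CPM with sulprostone (adjusted p = 0.131, and 0.0415 with the block), and Kitl, the ligand of the receptor Kit, 159 ± 64.9 CPM with both agonists and 283 ± 52.2 CPM with sulprostone (adjusted p = 0.229).

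Markers of blood cells were present despite the depletion of CD45+ and Ter119+ cells. Sums of 11 measured erythroid markers ranged from 6668 to 8972 CPM with both agonists and from 5670 to 8894 CPM with sulprostone, those of 17 granulocyte markers from 2856 to 5222 CPM with both agonists and from 4510 to 6689 CPM with sulprostone, and those of 16 monocyte and macrophage markers from 925 to 2273 CPM with both agonists and from 1766 to 2368 CPM with sulprostone. B-cell marker sums ranged from 442 to 1429 CPM with both agonists and from 504 to 1565 CPM with sulprostone, and Ptprc, the gene of CD45, from 107 to 154 CPM with both agonists and from 118.7 to 159 CPM with sulprostone. No measured marker of any list was at 0 in all 8 libraries. One blood cell marker was called, the recombinase gene Rag1 of developing lymphocytes, with 19.7, 37.8, 10.6 and 16.7 CPM with both agonists, against 142.5, 136.1, 37.0 and 51.5 CPM with sulprostone (log2 fold change -2.14, adjusted p = 0.0441 with edgeR). Replicates 1 and 2 of sulprostone held the high values, and its groups overlapped by 1 pair. The part of cell makeup in the gene changes was not tested.

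The numbers at the start of the sample titles fall into runs, with 715 to 730 for replicates 1 and 2 and 780 to 793 for replicates 3 and 4 of both groups; what the runs stand for is not stated. With only the first run of both groups, 52 genes were called, and with only the second, 0. The median log2 fold change of the p53 targets was -0.85 in the first run and -0.55 in the second, and that of the interferon-stimulated genes -0.88 in the first and -0.08 in the second. A term for the run raised the number called to 1018, 480 higher and 538 lower, and a term for the block, the runs split by sex, raised it to 1442. The 4 blocks with mice of these groups each hold 1 mouse of both agonists and 1 of sulprostone. A further run of non-irradiated mice in the fit holds neither group.

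No gene passed the test of a difference between the sexes. The interaction of treatment and sex gave 0 calls (0.0%) with edgeR and 0 with DESeq2, 0.831% of genes at an unadjusted p below 0.05 and a smallest adjusted p of 0.591. The log2 fold change of Mdm2 was -0.81 in males and -1.40 in females, and that of Nr4a1 1.83 in males and 2.05 in females. With 2 mice per sex and group, a p that misses the threshold does not show that the sexes respond alike.

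The effect of adding rivenprost can also be read without sulprostone, in 4 rivenprost against 4 vehicle libraries that share no library with the comparison above. Rivenprost against vehicle gave 172 called genes (1.13%), most of them higher (0.903% of all genes) and 35 lower (0.231%). Of the 254 genes, 244 had the same sign in both comparisons, 55 of the 57 higher and 189 of the 197 lower, beside 65.5% of all genes, and 37 were called in the same direction in both. Rnf125 was higher by a log2 fold change of 0.97 where rivenprost was added to sulprostone and of 1.80 for rivenprost alone. In the same order the values were 1.94 and 2.08 for Nr4a1, 2.51 and 2.85 for Lif, and 1.61 and 1.27 for Cirbp, all called in both. Mdm2 had log2 fold changes of -1.09 where rivenprost was added to sulprostone and of -0.57 for rivenprost alone (adjusted p = 0.102), and Polk of -1.86 and -0.81 (adjusted p = 0.298 for rivenprost alone).

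The difference between these increments, with minus without sulprostone, was tested for every gene. It gave 0 calls (0.0%) with edgeR, with 655 genes at an unadjusted p below 0.05 and a smallest adjusted p of 0.124, and 15 calls with DESeq2. Genes with the lowest adjusted p among those named were Pdlim5, with a difference of -0.96 (95% interval -1.32 to -0.61), Ptx3 with -3.46 (-4.89 to -2.04), Akap12 with -1.70 (-2.39 to -0.998) and Myo1e with -2.28 (-3.20 to -1.36). Sulprostone against vehicle gave log2 fold changes of 0.79, 3.56, 1.88 and 1.47 for these genes, called in all but Myo1e (adjusted p = 0.0777). That comparison uses the same sulprostone and vehicle libraries as the difference of increments, with the opposite sign, so the values are not independent. For Nr4a1 the difference was -0.14 with an interval of -1.40 to 1.13 (adjusted p = 0.973 with edgeR). For Mdm2 it was -0.52 with an interval of -1.002 to -0.04 (adjusted p = 0.941 with edgeR). The intervals are not adjusted for the number of genes tested. The comparisons that follow share the libraries of both agonists with the comparison of both agonists with sulprostone. Both agonists against vehicle gave 469 calls (3.09%), 227 higher (1.5%) and 242 lower (1.6%). Both agonists against rivenprost alone gave 0 calls (0.0%) with edgeR, with 765 genes at an unadjusted p below 0.05. In that comparison the log2 fold change of Mdm2 was -0.58 (95% interval -0.92 to -0.24) and that of Nr4a1 0.75 (-0.15 to 1.64). The adjusted p with edgeR was 0.88 for both genes.

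The same contrast was made in sorted hematopoietic stem cells (HSCs, 4 libraries per group) of the same series, from mice with other title numbers. It gave 33 called genes (0.243%), 27 higher (0.199%) and 6 lower (0.0442%). Of the 254 genes called in stroma, 238 were measured in HSCs, and 198 of them (83.2%) had the same sign there, beside 58.1% of the 12991 genes measured in both. The genes called in both were 8, which is 3.15% of the stroma calls and 24.2% of the HSC calls: Nr4a1, Pde4d, Rnf125, Cirbp, Mat2a and Srsf5 were higher in both, Luc7l was lower in both, and Nrarp, an inhibitor of Notch signalling, was lower in stroma and higher in HSCs. In HSCs Nr4a1 averaged 297 ± 13.0 CPM with both agonists and 80.6 ± 29.4 CPM with sulprostone, and Rnf125 417 ± 47.5 CPM with both agonists and 178 ± 40.2 CPM with sulprostone. Mdm2 averaged 124.4 ± 31.2 CPM with both agonists and 253 ± 58.3 CPM with sulprostone in HSCs (log2 fold change -1.02, adjusted p = 0.0552), and Sesn2 56.0 ± 30.97 CPM with both agonists and 217 ± 97.2 CPM with sulprostone (-1.95, adjusted p = 0.0552).

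**Figure D5:**
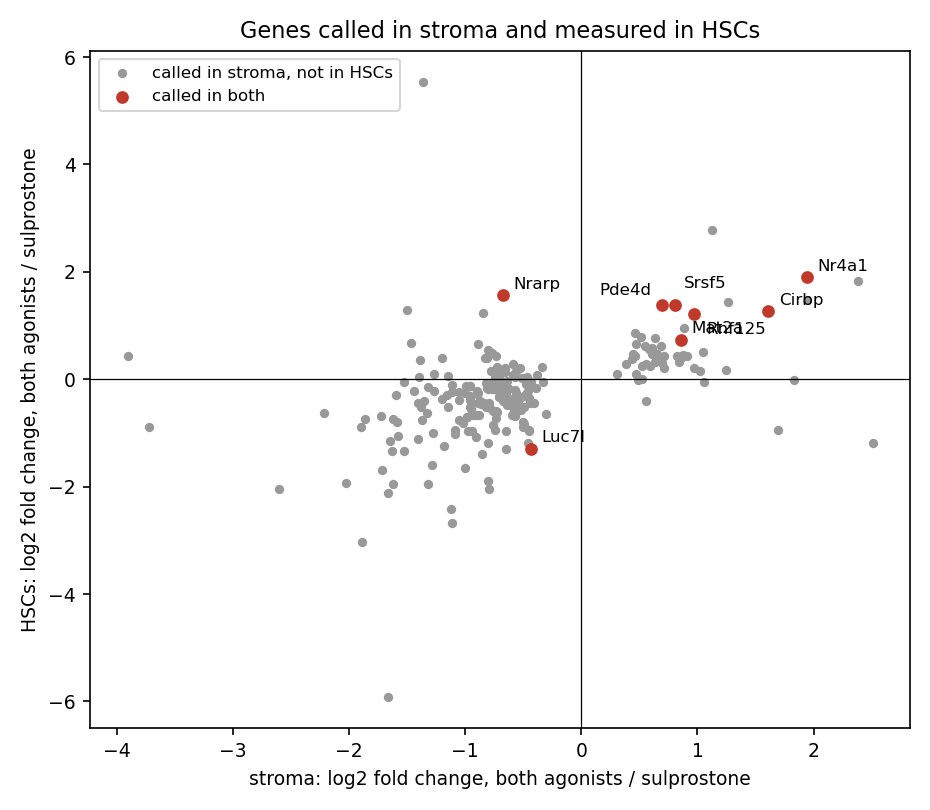
Log2 fold change of both agonists over sulprostone in HSCs (y axis) against that in stroma (x axis) for the 238 genes called in stroma and measured in HSCs. The 8 genes called in both are red and named; 7 of them have the same sign in both, and Nrarp lies in the upper left.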

How the data were processed

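Raw read counts per gene were deposited for 32 stroma and 20 HSC libraries, 1 table per fraction, per the file headers. RNA (100 ng, RNA integrity number above 8) was made into paired-end libraries of 100-base reads, per the labels' protocols. FastQC 0.11.5, STAR 2.5, featureCounts (Subread 1.5.1), edgeR 3.36.0 and mm10 are named in the submitters' processing notes without roles; strandedness of counting and the filter on low genes are not given in the sources used here, and overlapping or near-identical genes can share reads. The authors' deposited log2 fold changes and adjusted p-values were used only for a comparison of counts: the authors' deposited table called 327 genes (84 higher, 243 lower), 244 of them among the 254. Gene lengths were those deposited.

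Counts were fitted with edgeR 4.0.16 (quasi-likelihood, TMM factors, robust) over all 32 stroma libraries with group and sex, which share 1 estimate of spread (23 residual degrees of freedom, common biological coefficient of variation 0.302). Each mean ± SD is over TMM-scaled CPM, and fold changes carry standard errors. Replicates, numbered in accession order, differed far beyond counting noise (chi-square per degree of freedom 75.1 to 282), so none was a repeat deposit. DESeq2 1.42.0 was an alternative. Title numbers run in blocks within a sex, and the 4 blocks with mice of these groups each hold 1 mouse of both agonists and 1 of sulprostone. What a block stands for is not labelled. Deviations of log2(CPM + 1) from the group means correlated between the mice of a block at 0.213 to 0.526, the highest value for each mouse, so a fit with the block was added. The 52 further per-sample columns deposited, of log2 CPM, were not used. Members and lists were chosen with earlier results of these data known. Genes were named by rule: the 15 largest positive and 10 largest negative changes among called genes with separate groups and a group mean of at least 5 CPM, the 10 smallest p, up to 4 called members per list (or the one with the smallest p), and Ptger1 to Ptger4; other genes named were chosen after their values were seen.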

Additional observations from a re-analysis of the deposited data

Results flagged for a closer look

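In groups of 4 libraries, a value was picked out when its gap to the nearest other library took up nearly all of the group's range, and chance picks about 1 group in 20; 13 of 154 groups checked (8.44%) were picked out, 5 of them through replicate 3 of sulprostone and 3 through replicate 3 of both agonists, both male. With both agonists, replicate 3 was far above the rest in Lif (191 CPM, next 61.1), Per1 (264.2 CPM, next 195) and Irs2 (70.1 CPM, next 32.8), and replicate 2 far below the rest in Nr4a2 (12.6 CPM, next 29.8) and Ptger2 (0.659 CPM, next 1.19). With sulprostone, replicate 3 was far above the rest in Nr4a1 (124.8 CPM, next 70.03), Polr3g (18.8 CPM, next 12.3), Hnrnpdl (236.9 CPM, next 165), Haghl (6.58 CPM, next 4.08) and the erythroid marker sum (8894 CPM, next 6189). Replicate 2 of sulprostone was far above the rest in Ccl11 (0.225 CPM, next 0.0366), replicate 1 in Irs2 (22.9 CPM, next 18.03), and replicate 4 in the pericyte and smooth muscle marker sum (435 CPM, next 317).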

How the results depend on the processing

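The numbers of called genes (254, 57 higher and 197 lower) depended on the processing. With the replicate block, chosen after the data were seen, they were 1442 (766 higher, 676 lower), all 254 among them; of the 62 genes named by rule, 7 gained a call and 0 lost one. They were 637 with DESeq2 (198 higher, 439 lower, 253 of the 254 among them), 1018 with a term for the run of title numbers (480 higher, 538 lower), 52 with only the run 715 to 730 (11 higher, 41 lower), 0 with only the run 780 to 793 (0 higher, 0 lower; 404 genes at an unadjusted p below 0.05) and 2 in a fit of only the 8 libraries (0 higher, 2 lower; 2999 at an unadjusted p below 0.05). At least 5 CPM in 4 of the 8 libraries gave 110 higher genes. Without 1 library they ranged from 28 to 616 in all, 3 to 255 higher and 25 to 361 lower. Relative log expression factors gave 273, no term for sex 246 and filterByExpr 254. The interaction with sex gave 0 calls throughout. The difference of increments gave 15 calls with DESeq2 and 0 to 6 without 1 library, 6 of them without replicate 1 of rivenprost. The HSC contrast gave 227 calls with DESeq2 and 17 to 38 without 1 library. The causes were not tested. Ptger1 turned its sign with only the run 715 to 730 (log2 fold change 1.71) and without replicate 3 (0.077) or 4 (0.079) of both agonists or replicate 4 of sulprostone (0.73), and Ptger3 without replicate 2 of sulprostone (0.015). Without 1 library the change of Ptger1 ranged from -0.42 to 0.73 and that of Ptger3 from -0.29 to 0.015. Genes near 1 CPM, such as Ptger1, Areg and Ccl11, rest on few reads.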
